A study of Mus musculus with 12 samples.

Results

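Each gene was asked a single question: whether bleomycin changed its level by a different amount in the libraries labelled p300 knockout than in the control libraries. The quantity is the interaction, the response of the knockout-labelled cells (KOBLM minus KO) minus the response of the control cells (BLM minus Con), on a log2 scale. A positive interaction means that the response of the knockout-labelled cells lay above that of the controls, and a negative one that it lay below. The rule takes all 12 of the 12 libraries of the series, 3 from each arm (Con, BLM and their knockout-labelled counterparts KO and KOBLM), and every gene symbol that passed a filter on low counts, 13054 of the 17480 symbols with a count. The study deleted p300 from ATII cells to learn its part in lung fibrosis.

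The cells were primary murine alveolar type II (ATII) cells, sorted by flow cytometry from dissociated lungs with antibodies against CD74 and Ep-CAM, from 3 mice per group. Con and KO mice received PBS into the trachea, and BLM and KOBLM mice received bleomycin at 4 mg/kg by the same route. The protocol describes tamoxifen at 10 mg/kg, given at an age of 8 weeks before bleomycin, without naming the groups, while the legend for qRT-PCR on sorted ATII cells of floxed mice describes either vehicle or tamoxifen. KO and KOBLM mice carried Ep300 alleles with loxP sites around exon 9, deleted by a CreERT2 recombinase that the surfactant protein C promoter drives in ATII cells. For Con and BLM the sources differ: the labels call the mice wild type or negative controls, the account of the results calls them floxed (Spc-p300 f/f), and the supplementary methods name C57BL/6 mice. The effects of the deletion, of the Cre and floxed alleles and, if the control mice received vehicle, of tamoxifen itself cannot be told apart here.

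p300 is a histone acetyltransferase, an enzyme that acetylates histone tails at promoters and enhancers and so helps transcription factors such as C/EBPβ and NF-κB to switch genes on. Bleomycin breaks DNA. In the mouse lung it injures the epithelium, draws in monocytes and neutrophils, depletes the resident alveolar macrophages and leads to scarring by matrix-producing fibroblasts. ATII cells make surfactant and renew the alveolar surface. Chemokines such as Ccl2, Ccl7 and Ccl12, ligands of the receptor Ccr2, call monocytes to the injured lung.

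Before the results, 3 facts about the libraries bear on them. As to depth and content, libraries held 7005005 to 11153154 counts, and genes of alveolar macrophages were among the most abundant: Chil3, a secreted chitinase-like protein of these cells, ranked 4 of all genes by mean CPM (a library's counts scaled to one common total) and Ccl6 ranked 7, whereas Sftpc, which encodes surfactant protein C, ranked 1526. The 14 ATII markers summed to 643 to 3663 CPM over the libraries, and Nkx2-1, the transcription factor that defines the lineage, was at 0 in 7 of 12 libraries. For the 20 resident alveolar macrophage genes the sum ranged over 16520 to 29020 CPM among Con libraries and over 870 to 8431 among BLM libraries. Among KO libraries it ranged over 11630 to 46120, and among KOBLM libraries over 9928 to 26910. The sum was thus lower in every BLM library than in any library of the other groups. In bulk RNA, fewer cells of a type and less RNA per cell cannot be told apart. The library BLM 3 stood apart. It had 6847 genes with a count against 8790 to 13838 elsewhere, a sum of 3285 CPM over the 20 pluripotency genes against 0.648 to 24.7 elsewhere, and 0 for all 19 markers of T, B and NK cells. Its counts correlated with those of BLM 1 and BLM 2 at Spearman coefficients of 0.473 and 0.478 across genes, against 0.693 to 0.889 for the other pairs within a group. Results are therefore given with and without it. Likewise the library KO 2, from a mouse given PBS, had the lowest ATII sum (643 CPM, of which Cd74 held 460). Its sum over 22 genes of recruited monocytes and macrophages was 11370 CPM against 5438 and 6379 in the other KO libraries. By Sftpc, Sftpb and Sftpa1 the lowest library was instead KOBLM 3, at 0.554, 0 and 15.6 CPM against 11.1, 25.8 and 19.1 in KO 2. KOBLM 3 also had the highest recruited sum (17100 CPM). The ribosomal RNA gene Rn45s took 21.6% of the counts in KO 2, the highest share, and 17.4% in BLM 3, against 2.04% to 14.7% in the other 10 libraries. The part of the ribosomal RNA share and of the cell mixture in the results below was not tested.

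**Figure D1:**
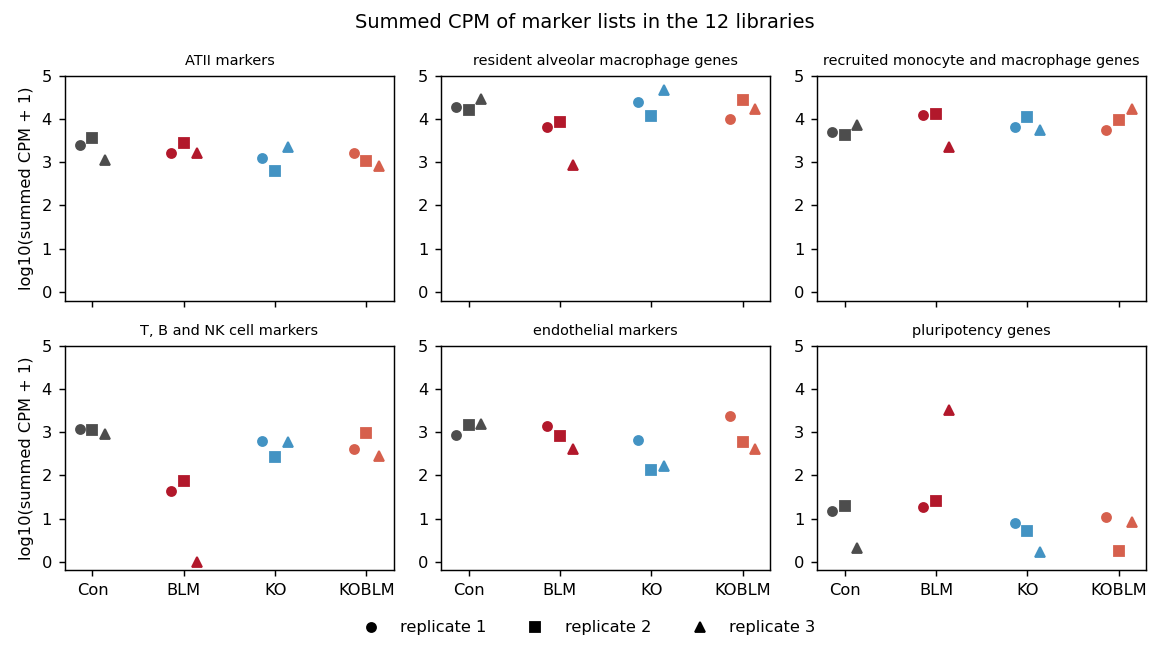
Summed CPM of 6 marker lists in each library, on a log10 scale after adding 1, with 1 point per library and replicates 1 to 3 as circles, squares and triangles. The resident alveolar macrophage and lymphocyte sums are lowest in the 3 BLM libraries, and the triangle of BLM stands alone in the pluripotency panel at 3285 CPM. The lymphocyte sum is mostly Cd2, and without Cd2 the BLM and KO libraries overlap.

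Ep300 itself did not separate the genotypes. It lies on chromosome 15 of GRCm38 (81585351 to 81652077), and its normalized level (CPM after TMM scaling, the scale of all single-gene levels below) was 134, 145 and 47.6 in Con, 121, 101 and 34.3 in BLM, 152, 184 and 92.7 in the libraries labelled KO, and 177, 53.2 and 105 in those labelled KOBLM. The groups overlapped in both pairs, and the interaction was 0.00 ± 0.98 (SE). The kit reads the 3′ end of transcripts, and exon 9 (81620000 to 81620117) lies 6453 nt upstream of where the transcript Ep300-201 stops, so these counts do not check the deletion. The study reports that qRT-PCR on sorted ATII cells and co-immunofluorescence in lungs showed the loss of p300. Whether the mice of these libraries were among those checked is not stated, so every direction below rests on the labels. Crebbp, the closest relative of p300, had an interaction of 0.14 ± 0.64 (SE), and 0 of the 13 histone acetyltransferase genes tested passed the threshold.

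A gene was counted as different between the responses at an interaction over 1.5-fold and an unadjusted p under 0.05, the fold and p threshold used in the study. With all libraries, 368 genes passed. The interaction was higher for 197 of them (1.51% of tested genes) and lower for 171 (1.31%), and no gene had an adjusted p under 0.05 in edgeR (smallest adjusted p = 1.0). DESeq2 on the same counts gave 625 genes, of which 85 had an adjusted p under 0.05, and these are not counted below. For every gene named below the adjusted p of the interaction rounds to 1.0 in edgeR, so each is given with its standard error and as passing or not passing the unadjusted threshold. The 2.82% of genes that passed is below the 5% that a p under 0.05 passes when no gene differs, so the genes below are candidates and not single established differences. Without BLM 3, 652 of 14084 genes passed, 308 higher (2.19%) and 344 lower (2.44%), again with no adjusted p under 0.05 (smallest adjusted p = 0.333). Of the 368, 262 also passed without BLM 3 and all 368 kept their sign.

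Across all tested genes the responses themselves were only weakly correlated. In control mice, 286 genes rose (2.19%) and 272 fell (2.08%) with bleomycin, and in the knockout-labelled mice 152 rose (1.16%) and 69 fell (0.529%). Across the 13054 genes the responses, which share no library, correlated at a Pearson coefficient of 0.07, and 51.8% had the same sign. Genes are not independent replicates, and no test was made on this value. Of the 558 genes that changed in control mice and the 221 that changed in knockout-labelled mice, 29 were shared (5.2% and 13.1%), 22 of them in the same direction. The 13.1% is to be set beside the 2.19% and 2.08% of all tested genes that rose and fell in control mice. The 5.2% is to be set beside the 1.16% and 0.529% in knockout-labelled mice. Both shares were thus above those over all genes. The tests of both responses drew on the same estimate of each gene's spread, so they are not independent, and no test was made on the overlap. Genes in common included Cdkn1a, the p53 target p21 that halts the cell cycle after DNA damage, at 445, 468 and 214 in Con, 1319, 918 and 331 in BLM, 404, 249 and 225 in KO, and 824, 1119 and 634 in KOBLM. Its BLM and Con libraries overlapped while all KOBLM libraries lay above all KO libraries, and its interaction of 0.37 ± 0.76 (SE) did not pass. Thbs1, a matricellular protein that activates TGF-β, rose as well in both, to 448, 203 and 275 in BLM from 16.0, 37.8 and 36.9 in Con, and to 99.98, 107 and 60.1 in KOBLM from 10.8, 40.2 and 23.7 in KO. The interaction of Thbs1 was -1.51 ± 0.91 (SE). Cdkn1a and Thbs1 thus rose past the unadjusted threshold in both genotypes, with a difference that did not pass. At an adjusted p under 0.05 each response had 0 genes in edgeR, so these are candidates as well. Without BLM 3 and KO 2 together, a choice made after seeing the data, the responses shared 149 genes, 139 in the same direction, and correlated at 0.14.

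The 368 genes were sorted by the form of the difference, as a description with no test of its own. In 255 genes (69.3%) the responses had opposite signs and both exceeded 1.5-fold (reversed), in 94 the control response was the larger (blunted), and in 19 the knockout-labelled response was the larger (enlarged). Without BLM 3 these numbers were 414, 208 and 30. Of the blunted genes, 40 were higher and 54 lower in BLM than in Con. The 197 genes with a higher interaction had a median difference from Con of -2.4 in BLM, -2.26 in KO and -0.321 in KOBLM (log2). For the 171 with a lower interaction the medians were 3.05 in BLM, 1.6 in KO and 0 in KOBLM. A choice by the interaction itself favours such patterns, so nothing is read from them. Of the 171 genes with a lower interaction, 40 (23.4%) had most of their summed CPM (a share over 0.667) in a single library, which was BLM 3 for 34. Of the 197 genes with a higher interaction 9 did, and of all tested genes 2.64%.

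**Figure D2:**
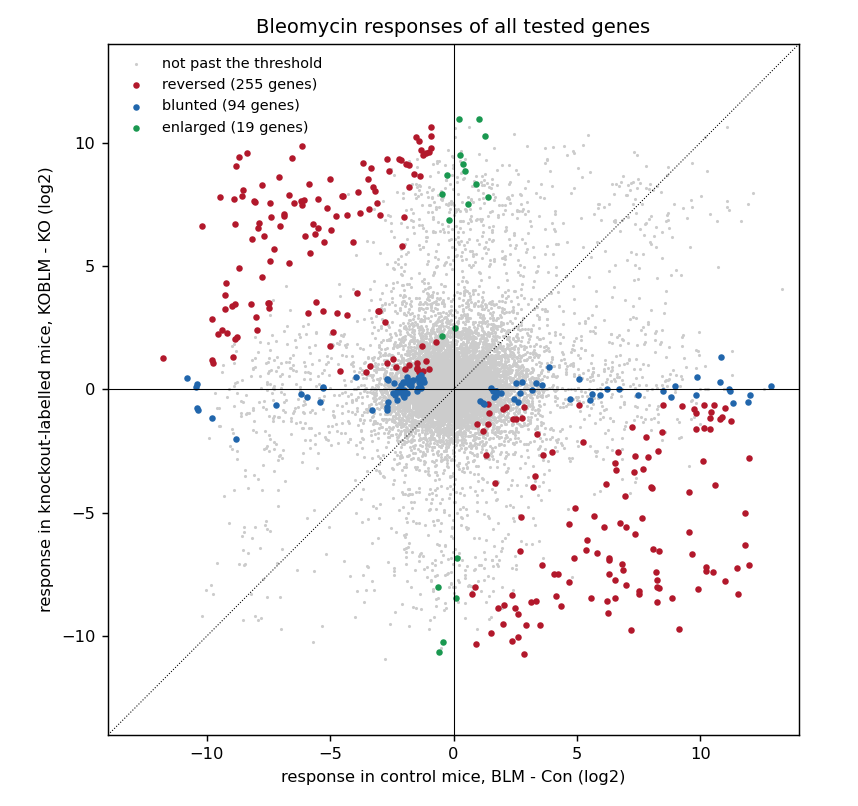
Response to bleomycin of each of the 13054 tested genes in control mice (BLM minus Con, x axis) and in knockout-labelled mice (KOBLM minus KO, y axis), as fitted log2 differences. Coloured points are the 255 reversed, 94 blunted and 19 enlarged genes, and the dotted line marks equal responses. Fitted differences near 10 belong to genes with a group at or near 0 counts, where the size depends on the fit.

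A recurrent form among the genes that passed was a fall with bleomycin in control mice beside overlapping KO and KOBLM libraries. Kcnn3, a calcium-activated potassium channel, was at 226, 142 and 119.9 in Con and at 2.33, 4.40 and 0 in BLM, but at 135, 46.9 and 118 in KO and 39.8, 151 and 70.0 in KOBLM. All BLM libraries lay below all others, and KO and KOBLM overlapped. The interaction was 5.99 ± 1.62 (SE), and 5.39 without BLM 3, and passed in both fits. The difference had the same form in Krt19, an intermediate filament keratin, which was at 473, 432 and 428 in Con, 11.7, 19.5 and 0 in BLM, 371, 91.3 and 282 in KO, and 161, 308 and 47.5 in KOBLM (interaction 4.89 ± 1.71, SE). Fabp1, a fatty acid-binding protein, was at 195, 246 and 533 in Con and 6.41, 0.293 and 0 in BLM. In KO it was at 207, 7.25 and 181 and in KOBLM at 50.7, 186 and 15.5 (interaction 6.55 ± 2.13, SE). Krt19 and Fabp1 are listed here with the alveolar macrophage genes, since these cells express them in the mouse lung, and Krt19 is also listed with the epithelial genes of the Krt8-high transitional state.

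Of the 20 resident alveolar macrophage genes, all tested, 4 had a higher interaction (Fabp1, Itgax, Car4 and Krt19) and 0 a lower one. The median interaction of the list was 1.93 beside 0.228 for all tested genes, from a median response of -2.29 in control mice and -0.677 in knockout-labelled mice. In the control mice 9 of the 20 fell, and in the knockout-labelled mice 0 changed. Itgax, which encodes the integrin CD11c, was at 693, 559 and 487 in Con, 87.1, 179 and 114 in BLM, 524, 296 and 669.7 in KO, and 301, 721 and 347 in KOBLM (interaction 2.07 ± 0.72, SE). Car4, a carbonic anhydrase, had an interaction of 1.77 ± 0.77 (SE) and passed in 4 of the 12 fits that left out a library, those without BLM 2, BLM 3, KO 1 or KOBLM 3. The most abundant members were less separated. Chil3, at 0.79 ± 1.14 (SE), and Ear2, an eosinophil-associated ribonuclease, at 1.89 ± 1.13 (SE), did not pass, although Ear2 fell in control mice, from 1777 to 2364 in Con to 42.9 to 537 in BLM. Without BLM 3 the list had 7 members higher and 1 lower (Fabp4), with Lpl, Plet1 and Cidec added, and a median of 1.5 beside 0.0584. Without BLM 3 and KO 2 together 5 were higher and the median was 1.21 beside 0.214. This list moved with the marker sums above, of which it is one.

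Among the markers of T, B and NK cells, 4 of 18 tested had a higher interaction (Cd2, Cd8a, Gzma and Ncr1) and 0 a lower one. Of all tested genes 1.51% were higher. The median interaction of the list was 5.66 beside 0.228 for all tested genes. Cd2, an adhesion receptor of lymphocytes, was at 1062, 959.7 and 741 in Con, 21.6, 50.02 and 0 in BLM, 619, 253 and 413 in KO, and 323, 852 and 214 in KOBLM. BLM lay below every other library, and its interaction was 5.39 ± 1.75 (SE). Cd2 made up most of the summed CPM of the list, and which cells its counts came from was not tested. The other 18 markers had sums of 61.1 to 142 CPM for Con and 0 to 26.5 for BLM, against 14.8 to 146 for KO and 64.3 to 91.9 for KOBLM. With levels this low in BLM, the size of their fitted interactions and of the list median depends on the fit. Gzma, a protease of cytotoxic lymphocytes, was at 4.58, 24.2 and 28.8 in Con and at 0 in all 3 BLM libraries, at 3.39, 5.93 and 19.4 in KO and at 7.84, 0.0944 and 22.8 in KOBLM. The calls of Cd2, Cd8a and Gzma held as each library in turn was left out, and that of Ncr1 was lost without Con 2. Cd8a and Ncr1 reached at most 11.6 and 6.30 CPM. All 14 endothelial markers had a positive interaction (median 2.37), but 1 passed, Kdr, the main VEGF receptor, at 67.3, 269.9 and 182 in Con, 99.8, 29.3 and 83.6 in BLM, 110.5, 9.88 and 34.9 in KO, and 309, 171 and 39.5 in KOBLM (3.03 ± 1.31, SE). Its groups overlapped in both pairs, and it passed in 5 of the 12 fits that left out a library, not in those without Con 2, Con 3, BLM 2, KO 2, KO 3, KOBLM 1 or KOBLM 2.

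Outside the marker lists, a set of abundant genes fell in control mice alone by the tests of each response, with the difference itself past the threshold. Magt1, a magnesium transporter and oligosaccharyltransferase subunit, was at 285, 229 and 531 in Con, 75.3, 75.8 and 74.2 in BLM, 201, 279.7 and 264 in KO, and 244, 288 and 195 in KOBLM (interaction 2.18 ± 0.67, SE). Here BLM 3 lay with BLM 1 and BLM 2. Sort1, a sorting receptor of the Golgi, fell 6.32-fold in control mice, from 496, 401 and 569 to 51.3, 111 and 70.3, with KO at 507, 384 and 423 and KOBLM at 193, 406 and 330.3 (2.16 ± 0.67, SE). Hebp1, a heme-binding protein, fell 5.23-fold in control mice and had an interaction of 2.15 ± 0.70 (SE). Gstm1, a glutathione transferase of the Nrf2 program, was at 363, 264 and 443 in Con, 57.2, 104 and 109 in BLM, 399.8, 397 and 249 in KO and 186, 572 and 511 in KOBLM (2.26 ± 0.74, SE). Of 22 Nrf2 antioxidant genes tested, Gstm1 was higher and Sod1 and Mt2 were lower. In Magt1, Sort1, Hebp1 and Gstm1 the BLM libraries lay below all Con libraries while KO and KOBLM overlapped, and the calls held as each library in turn was left out. Hspa5, the ER chaperone BiP, was the 1 call among 25 unfolded protein response genes (1.49 ± 0.60, SE). It was at 1513, 2132 and 3703 in Con, 1050.1, 988 and 673 in BLM, 2065, 1848 and 2662 in KO, and 1861, 2384 and 2547 in KOBLM. The list had 20 positive members and a median of 0.582, and the call of Hspa5 was lost without Con 3 or without KO 2.

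**Figure D3:**
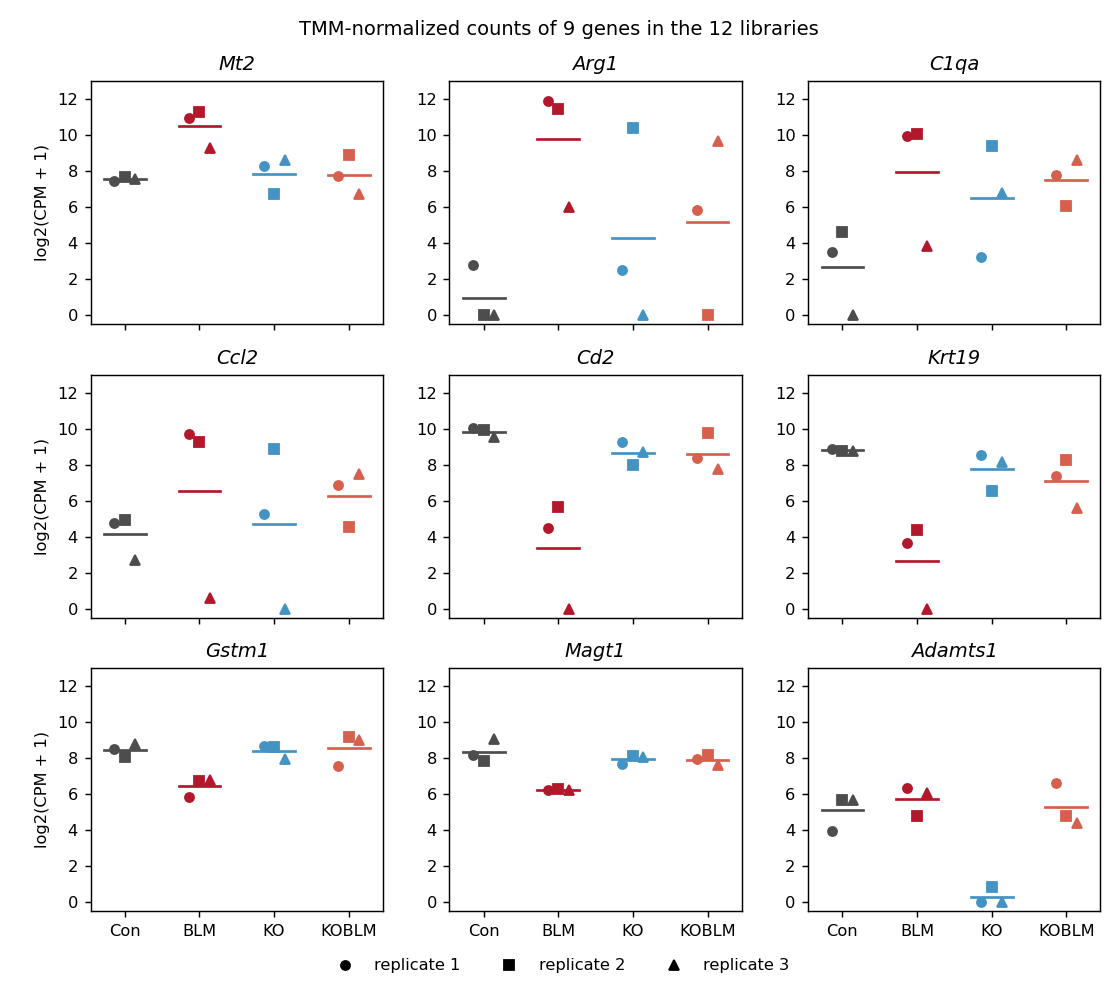
Normalized level of 9 genes in each library as log2(CPM + 1), with the 4 groups along the x axis, circles, squares and triangles for replicates 1 to 3, and a bar at the mean of the log values. Cd2, Krt19, Gstm1 and Magt1 are low in BLM alone, Mt2 is high in BLM alone, and Adamts1 is low in KO alone. In Arg1, C1qa and Ccl2 the square of KO 2 lies above the other KO libraries and above all KOBLM libraries.

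The opposite form, a rise in control mice beside overlapping KO and KOBLM libraries, was found in Mt2. Metallothioneins are small cysteine-rich proteins that bind zinc and copper and are induced by metals, oxidants and inflammation. Mt2 (chromosome 8, 94172664 to 94173568) was at 172, 207 and 191 in Con and at 1999, 2475 and 626 in BLM, 8.94-fold higher on average, with all BLM libraries above all others. It was at 311, 103 and 387 in KO and at 209, 481 and 106 in KOBLM, where the groups overlapped. The interaction was -3.17 ± 0.93 (SE) with all libraries, -3.57 without BLM 3 and -3.95 without BLM 3 and KO 2, and it passed in each fit that left out 1 library. Its neighbour Mt1, 5513 bases away, was at 658, 475 and 975 in Con, 1487, 2038 and 1070.4 in BLM, 980.3, 619 and 746 in KO, and 568, 1594 and 435 in KOBLM. The interaction of Mt1 had the same sign but did not pass (-0.98 ± 0.74, SE).

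Because the blunted rise of Mt2, an abundant gene, passed in each fit that left out 1 library, its promoter is shown with that of Mt1. The windows run from 250 bases before to 50 bases after the RefSeq transcription start (GRCm38.p6, forward strand). Gene coordinates elsewhere in this report come from GENCODE, whose starts (94172664 for Mt2 and 94179082 for Mt1) differ from the RefSeq starts. Capitals mark matches to TGCNCNC, a loose spelling of the core of the metal response element, on either strand, none of which overlap.
Mt2, chr8:94172368-94172667: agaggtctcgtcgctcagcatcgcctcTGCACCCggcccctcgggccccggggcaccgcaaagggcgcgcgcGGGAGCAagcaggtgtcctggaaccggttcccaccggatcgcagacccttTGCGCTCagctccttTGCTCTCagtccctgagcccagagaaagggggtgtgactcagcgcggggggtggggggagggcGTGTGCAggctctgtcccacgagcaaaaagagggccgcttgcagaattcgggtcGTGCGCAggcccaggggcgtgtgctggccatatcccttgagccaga
Mt1, chr8:94178839-94179138: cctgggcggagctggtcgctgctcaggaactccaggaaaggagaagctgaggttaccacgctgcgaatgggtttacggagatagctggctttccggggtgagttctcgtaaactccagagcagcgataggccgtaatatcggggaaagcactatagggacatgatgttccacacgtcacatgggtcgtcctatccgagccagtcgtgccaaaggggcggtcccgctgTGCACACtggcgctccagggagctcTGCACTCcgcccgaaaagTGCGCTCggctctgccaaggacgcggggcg
The Mt2 window held 3 matches on the strand shown and 3 on the other, and the Mt1 window 3 and 0. The last matches of the Mt1 window lie after the RefSeq start. Each window covers 300 bases around 1 annotated start, and matches outside it were not counted. The numbers thus do not compare the whole promoters of the genes. Of 27025 promoters of this length, 50.2% held at least 1 match, 6.92% at least 3 and 0.211% at least 6. The matches are a description of the letters and not of binding.

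The chemokines that the study singled out had negative interactions of differing stability. Ccl2, Ccl7 and Ccl12 lie on chromosome 11 (82035571 to 82037453, 82045712 to 82047525 and 82101845 to 82103400). Ccl2 was at 26.1, 29.3 and 5.45 in Con, 819, 620.2 and 0.505 in BLM, 37.9, 465 and 0 in KO, and 116, 22 and 175 in KOBLM. The level in the PBS-treated library KO 2 was thus above all KOBLM libraries, and that of BLM 3 below all Con libraries. The interaction of Ccl2 was -5.25 ± 2.73 (SE), which did not pass. It passed without BLM 3 (-5.83) and without KO 3, and was -2.10 without KO 2. Ccl7 was at 0 in all 3 Con libraries, at 148, 162 and 0 in BLM, at 0, 56.8 and 0 in KO, and at 6.58, 39.8 and 15.6 in KOBLM. With a group at 0 the size of the fitted interaction depends on the fit. Ccl7 passed with all libraries (-12.75 ± 4.43, SE), but without KO 2 both baselines were at 0 and the interaction did not pass. Ccl12, at 0.509, 0 and 0 in Con, 67.6, 97.4 and 0 in BLM, 8.798, 5.27 and 0 in KO, and 0, 0 and 8.85 in KOBLM, did not pass with all libraries (-8.94 ± 4.25, SE). It passed without BLM 3 and without BLM 3 and KO 2. Of the 3, Ccl12 was thus the one whose difference passed with both doubted libraries out. With Con at or near 0 the size of its interaction depends on the fit as well. Ccl12 passed in 4 of the 12 fits that left out 1 library.

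Over all 14 CC chemokine ligands tested, 2 had a lower interaction, Ccl7 and Ccl17, and 0 a higher one, and the median interaction was -2.09 beside 0.228 for all genes. The median response was 2.41 in control mice, where 5 rose, and 0.48 in knockout-labelled mice, where 0 changed. Ccl17, a ligand of Ccr4 made by dendritic cells and macrophages, was at 0, 25.3 and 0.264 in Con, 486, 1413 and 36.3 in BLM, 3.92, 48.3 and 33.2 in KO, and 46.1, 1.98 and 37.6 in KOBLM (-6.24 ± 2.48, SE). All BLM libraries lay above all Con libraries, and its call was lost without BLM 2. Without BLM 3, 6 of the 14 were lower (Ccl2, Ccl5, Ccl7, Ccl8, Ccl12 and Ccl17) and the median was -2.66. Without KO 2, 1 was (Ccl17) and the median was -0.679 beside 0.369 for all genes, and without both 4 were. Among 13 ligands of the CXC, CX3C and XC families 1 passed, Cxcl13, which draws B cells and was at 0 in Con, 74.9, 46.2 and 0 in BLM, 1.48, 11.4 and 0 in KO and 0 in KOBLM. Cxcl2 and Pf4 were added without BLM 3. Cxcl2, a neutrophil attractant, was at 879, 556 and 629 in Con, 11932, 6024 and 37.1 in BLM, 1837, 2976 and 296 in KO, and 3824, 497 and 4063 in KOBLM, and its interaction of -2.41 ± 1.69 (SE) with all libraries did not pass. Of 18 chemokine receptors 1 passed, Ackr3, a scavenging receptor, with a higher interaction (8.35 ± 3.89, SE) that was lost as any of 9 libraries was left out. No member of the 18 inflammatory cytokine genes, the 15 NF-κB genes or the 6 C/EBP genes tested passed with all libraries. Cebpb, which encodes C/EBPβ, had an interaction of 0.74 ± 1.19 (SE).

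The complement component C1q and the arginase Arg1, both made by recruited macrophages, had lower interactions that did not pass without KO 2. C1qa, C1qb and C1qc, the chains of C1q, lie side by side on chromosome 4 (136880129 to 136898803), and they were the 3 members called, all lower, both among the 22 recruited monocyte and macrophage genes and among the 14 complement genes tested. C1qa was at 10.2, 23.6 and 0 in Con, 969.6, 1063 and 13.1 in BLM, 8.48, 681 and 111 in KO, and 218, 66.3 and 397 in KOBLM (-6.15 ± 2.40, SE). C1qb and C1qc had interactions of -5.96 and -6.67 and passed. In KO, the library KO 2 held the highest level of each chain. Without KO 2 none of the chains passed, at -4.03 for C1qa, -1.75 for C1qb and -4.43 for C1qc. C1qa was also lost without KOBLM 2, C1qb without Con 3, BLM 2, KOBLM 1 or KOBLM 2, and C1qc without Con 1, Con 3, BLM 2 or KOBLM 1. Without KO 2 the median of the 22 recruited macrophage genes went from -0.904 to 0.664. Without BLM 3, 6 of the 22 were lower and 1, Lyz2, was higher. Arg1, which turns arginine into ornithine in alternatively activated macrophages, was at 5.98, 0 and 0 in Con, 3811, 2828 and 63.6 in BLM, 4.77, 1353 and 0 in KO, and 55.9, 0 and 818 in KOBLM. It passed with all libraries (-10.78 ± 4.16, SE) and as each of the other 11 was left out, but not without KO 2 (-3.19). Msr1, a scavenger receptor, was the other member called among 13 alternatively activated genes (-5.11 ± 2.27, SE), and it passed in 4 of the 12 fits, not in that without KO 2. Apoe, of the recruited list, had an interaction of -3.31 that did not pass. With BLM 3 and KO 2 both left out, C1qa and Msr1 passed and Arg1 did not.

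**Figure D4:**
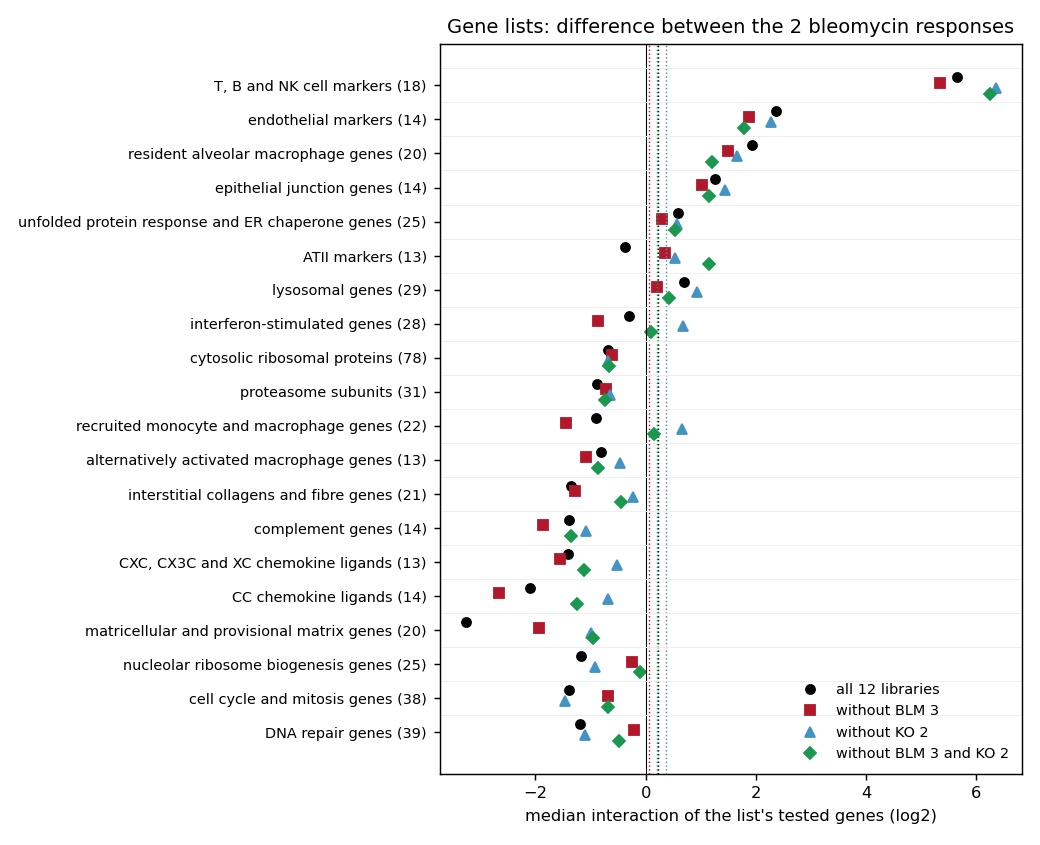
Median interaction of the tested members of 20 gene lists (number tested with all libraries in brackets) with all 12 libraries, without BLM 3, without KO 2 and without both. Dotted lines mark the median of all tested genes in each fit. The lymphocyte list stays above 5 in the 4 fits, a size that depends on the fit since its members other than Cd2 were low in BLM. The recruited macrophage list lies at -0.904 with all libraries and at 0.664 without KO 2.

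The collagen and matricellular genes had negative median interactions, with few members past the threshold. Of 21 interstitial collagen and fibre genes tested 0 passed (median interaction -1.35). They had a median response of 1.94 in control mice, where 4 rose, and 0.885 in knockout-labelled mice, where 2 rose. Col1a2, a chain of type I collagen, was at 24.4, 106 and 214 in Con, 891, 635 and 369.98 in BLM, 14.6, 179 and 143 in KO, and 352, 269.5 and 105 in KOBLM, and its interaction of -1.35 ± 1.20 (SE) did not pass. The median of this list was -0.235 without KO 2. Of 20 matricellular genes 3 were lower: Ecm1, a secreted glycoprotein (-3.41 ± 1.33, SE), Thbs2, an inhibitor of angiogenesis, and Fbln2, an elastic fibre protein. Ecm1 was at 38.1, 11.1 and 11.3 in Con, 356, 292 and 76.3 in BLM, 19.9, 159 and 40.2 in KO, and 44.7, 35.2 and 168 in KOBLM, and passed in 6 of the 12 fits that left out a library. Thbs2 and Fbln2 each passed in 4 of these 12 fits. The list had a median of -3.26, and of -1.94 without BLM 3, where Fn1, which encodes fibronectin, was called in place of Fbln2. Without KO 2 the median was -0.986, and Thbs2 and Has2 were lower. Of 14 serpin and plasminogen genes, Serpina3g and Serpina3n were lower, the first not without BLM 3. Serpina3n, an acute-phase protease inhibitor, was at 2.16, 3.68 and 4.84 in Con, 216, 184 and 12.1 in BLM, 0, 48.1 and 47.4 in KO, and 17.1, 4.53 and 0.121 in KOBLM. All BLM libraries lay above Con, KO and KOBLM overlapped, and the call held as each library in turn was left out (-7.40 ± 2.59, SE). Of 27 TGF-β pathway genes and 18 basement membrane genes, 0 and 1 passed. The 1 was Lama1, at most 8.402 CPM in any library.

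An enlarged response was rare with all libraries (19 of 368 genes), but the number depended on single libraries. As each library was left out it ranged from 5 of 461 without BLM 2 to 108 of 672 without KO 1. Without BLM 3 and KO 2 together it was 63 of 528. The clearest enlarged response was that of Adamts1, a metalloproteinase that cleaves proteoglycans, on chromosome 16 (85793827 to 85803113). It was at 14.5, 49.7 and 50.6 in Con, 81.6, 26.3 and 65.0 in BLM, 0, 0.824 and 0 in KO, and 95.5, 26.6 and 20.4 in KOBLM. KO lay below all other libraries, and Con and BLM overlapped. The interaction was 6.92 ± 2.05 (SE), 7.07 without BLM 3 and 11.25 without KO 2, and the call held as each library was left out. The group that stood apart was thus KO, while the KOBLM libraries lay within the range of 20.4 to 95.5 and those of BLM within 26.3 to 81.6. Dpt, which encodes the fibroblast matrix protein dermatopontin, had the same form, at 0 in the 3 KO libraries and at 14.3, 28.8 and 7.52 in KOBLM, against 2.67, 18.9 and 1.06 in Con and 16.2, 39.2 and 0 in BLM (8.98 ± 3.52, SE). It was the 1 member called of 13 fibroblast and smooth muscle markers, and was lost without Con 2 or BLM 1. No other member of the 19 metalloproteinase and inhibitor genes passed with all libraries, and Mmp19 passed without BLM 3.

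Among the reversed genes with the smallest p, several had most of their counts in BLM 3. Ttr, which encodes the thyroxine carrier transthyretin, had the smallest p of all genes (-18.78 ± 4.04, SE). It was at 0.108 to 0.176 in Con, 3.35, 0.147 and 932 in BLM, 0.424, 7.58 and 329 in KO, and 0.189 to 0.980 in KOBLM. Slc38a4, Plxnb1, Tsix, Gria3 and Zdbf2 had 84.4% to 97.3% of their summed CPM in BLM 3. Although each of them passed without BLM 3 as well, their levels in the other libraries were at most 15 CPM, and each call was lost without a single KO library (KO 2 for Zdbf2 and KO 1 for the others). Tsix is antisense to Xist, and whether counting used the strand is not given in the sources used here, so their reads cannot be told apart. Smim4, which encodes a small mitochondrial membrane protein, passed with and without BLM 3. It was at 5.73, 12.2 and 2.64 in Con, 119.9, 104 and 107 in BLM, 33.6, 16.3 and 189 in KO, and 23.4, 0.0944 and 17.8 in KOBLM (-6.54 ± 1.95, SE, and -6.56 without BLM 3), and passed in all 12 fits that left out a library. On the other side Hba-a1, a globin chain of red blood cells, was at 144, 238 and 749 in Con, 48.8, 7.77 and 0 in BLM, 59.8, 321 and 633 in KO, and 577, 7094 and 501 in KOBLM (7.33 ± 2.26, SE). A single library, KOBLM 2, held 68.4% of its summed CPM. Tc2n and D630039A03Rik, higher, and Gtf2h3, lower, complete the genes named for the smallest p. The first pair was at 0 in the 3 BLM libraries and the last at 0 to 0.108 in Con, so that the size of their fitted interactions depends on the fit.

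Reversal can also be described by groups that do not overlap in either pair. In 37 genes (0.283% of tested genes) every BLM library lay below every Con library while every KOBLM library lay above every KO library, and in 8 genes (0.0613%) the order was the opposite. With 3 libraries per group some genes take such orders when nothing differs, and no test was made on these numbers of genes. Of the 37 and the 8, 7 and 3 passed the interaction test. The most abundant of the 37 were Mmp19, Tmem198b, Gm4070, Trps1 and Dock5. Mmp19, a metalloproteinase, was at 371, 318 and 489.8 in Con, 179, 307 and 0 in BLM, 257, 243 and 164 in KO, and 312, 379.5 and 703 in KOBLM. Its interaction was 2.35 ± 1.83 (SE) with all libraries, which did not pass, and 1.76 without BLM 3, which did. Dock5, an exchange factor for Rac, passed with all libraries (1.80 ± 0.84, SE) but in 3 of the 12 fits that left out a library, from 57.9, 103 and 127 in Con and 47.2, 43.1 and 55.9 in BLM to 87.1, 77.3 and 75.1 in KO and 127, 209 and 88.1 in KOBLM. The most abundant of the 8 was Arpp19, an inhibitor of the phosphatase PP2A at mitotic entry. It was at 80.8, 96.5 and 115 in Con, 155, 169 and 371 in BLM, 151, 153 and 194 in KO, and 118, 98.1 and 117 in KOBLM (-1.83 ± 0.74, SE, and -1.32 without BLM 3, both passing), and was lost without Con 1, Con 2 or KO 3. Ndufa8, a subunit of respiratory complex I, ranged over 62.0 to 70.3 for Con, 95.1 to 109.5 for BLM, 128 to 148 for KO and 92.7 to 97.6 for KOBLM (-1.19 ± 0.72, SE), which did not pass, and passed without BLM 3.

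Genes of protein synthesis and breakdown had small interactions, mostly of one sign. Of the 78 cytosolic ribosomal protein genes tested, 74 had a negative interaction, with a median of -0.681 beside 0.228 for all genes, and 2 passed, Rpl12 and Rps27a. Without BLM 3 the median was -0.608, 72 were negative and 6 passed, and without KO 2 the median was -0.675 and 0 passed. The median response was 0.696 in control mice, where 14 rose and 0 fell, and 0.00628 in knockout-labelled mice, where 0 changed. Rps27a, a ribosomal protein made as a fusion with ubiquitin, was at 189, 163 and 358 in Con, 534, 554 and 963 in BLM, 231, 192 and 247 in KO, and 213, 252 and 231 in KOBLM (-1.48 ± 0.66, SE), and passed in 4 of the 12 fits. These short genes have many pseudogene copies, among which reads could be divided. Of 31 proteasome subunits 2 were lower, Psmc3 and Psmd1, which passed in 4 and 3 of the 12 fits, with a median of -0.88 (-0.725 without BLM 3). Of 50 nuclear genes of oxidative phosphorylation 1 was lower, Sdhb, with a median of -0.187. Of 27 lipid synthesis genes 1 was higher, Lpin1, a phosphatidate phosphatase (2.45 ± 1.11, SE). Its call was lost without Con 1, Con 3, BLM 1, KO 2 or KOBLM 2, and without the last the interaction was 1.005. Of 29 lysosomal genes Hexa was higher and Ctsl lower, with a median of 0.689 (0.204 without BLM 3 and 0.94 without KO 2). Hexa passed in 3 of the 12 fits, and Ctsl in 7, not in those without BLM 1, BLM 2, KO 2, KOBLM 1 or KOBLM 2.

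The shift in genes of dividing cells was smaller without BLM 3. Of 38 cell cycle genes 2 were lower, Cdc20 and Cenpf, with a median of -1.39. Cdc20, the activator of the anaphase-promoting complex, was at 7.89, 13.6 and 15.7 in Con, 19.1, 18.0 and 353 in BLM, 13.1, 18.3 and 42.7 in KO, and 10.6, 0 and 10.7 in KOBLM, and its interaction went from -5.19, which passed, to -2.38, which did not, without BLM 3. Without it 0 of the 38 passed and the median was -0.678. Parp2, of 39 DNA repair genes, Fbl, of 25 nucleolar genes, and Sod1, the cytosolic superoxide dismutase, were lost without BLM 3 as well, among other fits, and Ogg1, a DNA glycosylase, was higher without BLM 3. The median of the DNA repair genes went from -1.2 to -0.21 and that of the nucleolar genes from -1.17 to -0.241. Of the 7 pluripotency genes tested 1 was lower, Dppa2, with 97.9% of its summed CPM in BLM 3. Of 23 p53 targets 1 was higher, Gdf15, a stress-induced cytokine. It was at 286, 364 and 407 in Con, 71.1, 169.6 and 19.7 in BLM, 313, 632 and 264 in KO, and 408, 359 and 416 in KOBLM (1.99 ± 0.91, SE, and 1.52 without BLM 3), and passed in 3 of the 12 fits.

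In the epithelial lists themselves few or no members passed. As 2.82% of all tested genes passed, a short list with 0 is near that share. It is not read as the absence of a difference, here or in the lists below. Of 13 ATII markers tested 0 passed with all libraries or without BLM 3. Sftpc was at 221, 619 and 129 in Con, 25.6, 20.1 and 59.4 in BLM, 142, 13.3 and 66.8 in KO, and 110.3, 47.5 and 0.606 in KOBLM. It fell 9.22-fold in control mice, and its interaction of 2.71 ± 1.68 (SE) did not pass. Of 12 ATI markers 0 passed with all libraries and 3 (Emp2, Clic5 and Sec14l3), all higher, without BLM 3. Of 14 junction genes 1 was higher, Jup, which encodes plakoglobin (2.37 ± 1.04, SE, 5 of the 12 fits), and of 15 genes of the transitional state Krt19 was higher and S100a6, a calcium-binding protein, lower (-3.09 ± 1.28, SE). S100a6 was at 174, 116 and 240.1 in Con, 2983, 2172 and 219 in BLM, 90.6, 1139 and 309 in KO, and 570.5, 272 and 988 in KOBLM, and its call was lost without Con 2, BLM 1, KO 2, KOBLM 1 or KOBLM 2. Of the 44 lists, 16 had no member past the threshold with all libraries, among them the 11 neutrophil markers, 10 MHC class II genes, 15 MHC class I genes, 28 interferon-stimulated genes, 20 AP-1 genes, 19 glycolysis genes, 17 prostaglandin and leukotriene genes and 4 airway markers tested. Without KO 2, 26 lists had none.

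Of the 368 genes, 64 passed in all 12 fits that left out 1 library, 44 of them with a higher and 20 with a lower interaction. In at least 11 of the 12 fits 133 passed. The 64 include Kcnn3, Cd2, Fabp1, Krt19, Itgax, Magt1, Sort1, Hebp1, Gstm1, Adamts1, Mt2 and Serpina3n. The number called moved from 332 without Con 1 to 672 without KO 1, where 473 were higher and 199 lower, whereas without KO 3 it was 425, with 116 higher and 309 lower. Without BLM 3 it was 652, as given above. Without BLM 3 and KO 2 together 528 of 13915 genes passed, and 197 of the 368 were among them.

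**Figure D5:**
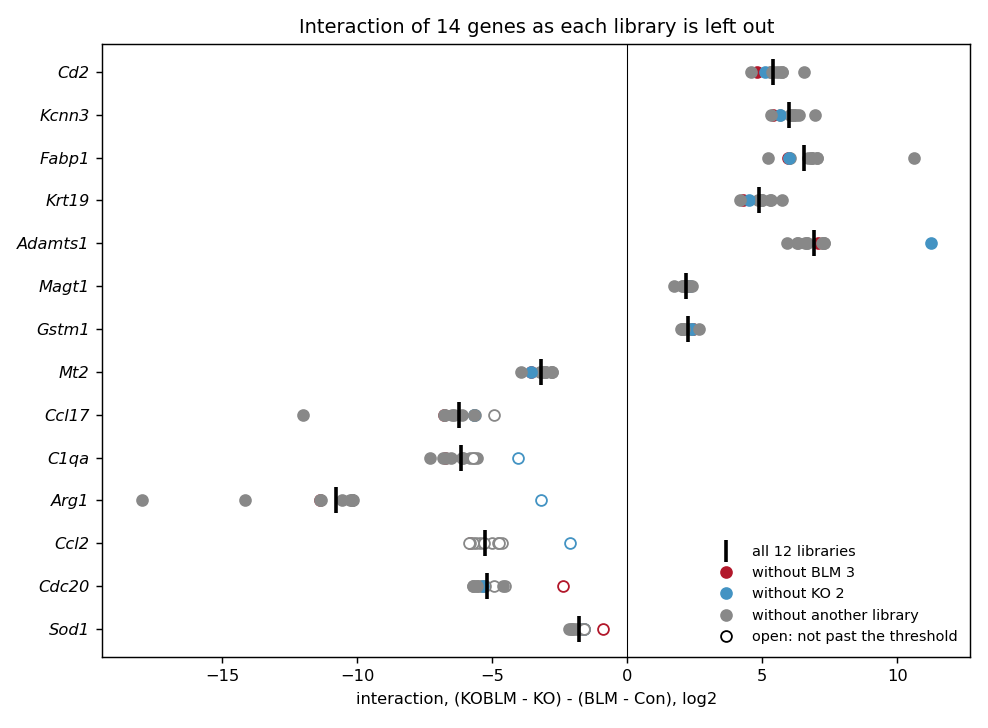
Interaction of 14 genes with all 12 libraries (black bar) and as each library was left out in turn (circles, filled where the fold and p thresholds were passed). Arg1 and C1qa lose the call without KO 2, Cdc20 and Sod1 lose it without BLM 3 among others, Ccl2 passes without BLM 3 or KO 3, and Cd2, Kcnn3, Fabp1, Krt19, Adamts1, Magt1, Gstm1 and Mt2 pass in all 12 fits.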

How the data were processed

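RNA of sorted ATII cells from 12 mice was sequenced with a 3′ tag kit. The authors deposited raw counts per gene symbol for each library. Their processing notes name Bowtie2, edgeR and the mouse build mm10, and versions are not given in the sources used here. Each file held 23282 entries, and 35 repeated symbols were summed, leaving 23238. Groups came from the sample labels. The members and gene lists were chosen with earlier results of these data known.

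Counts were analysed in R 4.3.3 with edgeR 4.0.16. Genes were kept by filterByExpr (minimum count 10, total 15), libraries were scaled by TMM, and a quasi-likelihood model with 4 groups and 8 residual degrees of freedom gave the interaction and both responses, with Benjamini-Hochberg adjusted p over all tested genes. The common biological coefficient of variation was 1.44. The 3 counts taken as the floor equal 0.269 to 0.428 CPM, which covers counting error only. Settings and libraries were varied (limma 3.58.1, DESeq2 1.42.0), and the fit was tested on simulated data.

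Genes were named if they were among the 10 smallest p per direction with a mean of at least 10 CPM that passed with and without BLM 3, up to 5 crossing genes per direction by abundance, list members that passed (up to 4 per list), and Ep300, Ccl2, Ccl7 and Ccl12. Apoe, Ccl5, Ccl8, Cdkn1a, Cebpb, Chil3, Col1a2, Crebbp, Cxcl2, Ear2, Fabp4, Fn1, Lpl, Mt1, Pf4, Plet1, Sftpc and Thbs1, and further genes listed by symbol alone as passing only without BLM 3, are outside this rule and were chosen after values were seen. Same-numbered replicates were checked for pairing over 18 pairs (correlations -0.117 to 0.096), and none exceeded 0.1, so the numbers were not used as a block. Nothing says that replicates share more than a group, and p-values measure the spread between these libraries.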

Additional observations from a re-analysis of the deposited data

Results flagged for a closer look

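Bleomycin responses of opposite order in the genotypes were set apart for a closer look. In 37 genes (0.283% of those tested) every BLM library lay below every Con library while every KOBLM library lay above every KO library. In 8 genes (0.0613%) the order was the opposite. With 3 libraries per group some genes take such orders when nothing differs, and no test was made on these numbers of genes. The difference between the responses was tested for each gene, and 7 of the 37 and 3 of the 8 passed. In all, those 7 and 3 included, 368 genes passed the test of the difference between the responses, of which 0 had an adjusted p under 0.05 in edgeR. Single libraries were not tested as outliers within their groups of 3, but the sample weight fitted by limma-voom over all libraries was 0.0339 for BLM 3 against 0.240 to 3.67 for the others.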

How the results depend on the processing

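Of the 368 genes, 359 also passed with the size factors of DESeq2 and 361 with library size alone, and the totals were then 407 and 421. With no filter on low counts 706 genes passed, with DESeq2 625, with limma-voom and sample weights 987, and at a fold over 1.5 alone 9383. With an adjusted p under 0.05 the interaction, the control response and the knockout-labelled response each had 0 genes, against 368, 558 and 221 at the unadjusted threshold. With the replicate number as a block 242 genes passed, 164 higher and 78 lower (67.8% higher against 53.5%), 170 of them among the 368, and the knockout-labelled response had 100 genes. As 4 of 12 libraries correlated best with their own number, the numbers are not taken to pair the mice. The control response had 947 genes with DESeq2, 2366 with limma-voom and 8471 by fold alone, and the knockout-labelled response 460, 533 and 7200. Without BLM 3 and KO 2 together the latter had 537. The share of reversed genes (69.3%) was 76.3% with no filter, 62.4% with DESeq2, 55.7% with limma-voom, 60.0% without BLM 3 and KO 2, and 25.2% by fold alone. As each library was left out, the interaction count ranged from 332 to 672, the control response from 292 to 767, the knockout-labelled response from 105 to 433, and the share of reversed genes from 63.5% to 82.8%. The cause was not tested. Of the 368 genes, 366 kept their sign with limma-voom and 359 of the 364 that were tested without BLM 3 and KO 2. The spread between libraries beyond counting error was large (coefficient of variation 1.44), and genes below about 10 counts were not tested. Each library came from a single mouse and a single cell isolation, so differences between mice and between preparations cannot be told apart.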
